A study of Mus musculus with 4 samples.

Results

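Amino acid transporters are the membrane proteins that carry amino acids and close relatives such as taurine and creatine into, out of and within cells. The genes were taken by name: all rows whose symbol starts with Slc1a, Slc6a, Slc7a, Slc36a, Slc38a or Slc43a and a number. The rule found 65 of the 55382 genes in the deposited tables, and 35 of these had a footprint level of at least 1 FPKM in 2 or more libraries. FPKM divides the fragments of a gene by its length and by the size of the library, so levels of different genes can be set side by side. The study applied ribosome profiling, which sequences the mRNA pieces covered by ribosomes, to mouse hearts taken at day 15 after birth. It has 2 libraries of KO hearts, from conditional knockout mice that the design text calls NAT10-CKO, and 2 of WT hearts, from mice called NAT10-FF. The deleted gene, Nat10, codes for an RNA cytidine acetyltransferase, and neither the promoter that drives the deletion nor the cells it acts in are stated. The labels give the tissue as heart and the cell type as cardiomyocytes. All 4 libraries carry the same batch label, cycloheximide was used in both groups, and nothing says whether the replicates of a group are separate animals, so the p-values measure the spread between these libraries.

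The carriers differ in what they move and what drives them. The SLC1 family takes up glutamate and small neutral amino acids with sodium, SLC6 carriers use sodium and chloride and include those for taurine, creatine, glycine and GABA, and SLC7 holds both the cationic amino acid carriers and the light chains that exchange amino acids once paired with a heavy chain such as Slc3a2. SLC36 carriers such as Slc36a2 move small amino acids with protons. SLC38 carriers move glutamine and alanine with sodium, and SLC43 holds facilitated carriers for large neutral amino acids. In heart muscle these genes feed protein synthesis and signalling to the growth kinase mTOR, and taurine and creatine are stored there at high concentration.

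Of the 65 genes, 62 are annotated as protein-coding in RefSeq GRCm38.p6 and 3 as long non-coding RNA. By family, 6 of 7 SLC1, 5 of 22 SLC6, 8 of 16 SLC7, 3 of 6 SLC36, 10 of 11 SLC38 and 3 of 3 SLC43 members reached the threshold. Another 19 members were listed at 0 in all libraries, and 11 had values below the threshold. One of the 35, Slc7a6os, is a protein-coding gene named for its position beside Slc7a6 and is not known as a carrier. Just inside the threshold lay Slc1a6, a glutamate carrier of cerebellar neurons, with 1.03 and 2.17 FPKM in KO hearts, while it was listed at 0 in both WT libraries. It passed only through the KO libraries and therefore had to differ. The protein-coding gene Ccdc105 overlaps 22.2% of Slc1a6 in RefSeq, and whether reads were assigned by strand is not stated. Just outside lay Slc6a17, a synaptic vesicle carrier, with 0.338 and 0.723 FPKM in KO hearts against 3.37 and 0.832 FPKM in WT hearts. Slc7a3, a cationic amino acid carrier, was also outside, with 0 and 2.29 FPKM in KO hearts and 0 in both WT libraries. Slc7a11, the cystine-glutamate exchanger, read 0.217 and 0 FPKM in KO hearts and 0.743 and 0 FPKM in WT hearts.

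The libraries were described first. Nat10 itself had 40.01 and 52.1 FPKM of footprints in KO hearts against 77.3 and 73.9 FPKM in WT hearts, and the difference did not pass limma's test (log2 change -0.71, adjusted p = 0.295). The median footprint level of the 15031 tested genes was 23.3 and 28.7 FPKM in KO hearts against 20.4 and 17.3 FPKM in WT hearts, and the members below are read against this shift. Heart muscle markers were strongly present: 10 of 10 passed the threshold, with summed levels of 82012 to 87054 FPKM in KO and 127330 to 135060 FPKM in WT. The 10 fibroblast markers, none at 0, summed to 29735 to 40991 FPKM in KO and 10618 to 12688 FPKM in WT. The 10 macrophage markers summed to 833 to 1874 FPKM in KO and 528 to 900.2 FPKM in WT, and the 10 endothelial markers to 4080 to 5255 FPKM in KO and 2732 to 3398 FPKM in WT, again with none at 0. The 8 smooth muscle and pericyte markers summed to 3879 to 4039 FPKM in KO and 5098 to 5159 FPKM in WT. Acta2 led this sum. Of the 8 markers, 6 had a positive log2 change (median 0.46), as did 71.1% of all tested genes (median 0.36). The erythroid sums, 726 to 1501 FPKM in KO and 1031 to 1252 FPKM in WT, overlapped. Of 4 fat markers, Adipoq, Cidec and Plin1 read 4.73, 6.68 and 13.3 FPKM in KO replicate 1 and 0 in the other 3 libraries. Fabp4, the remaining fat marker, was high in every library, with 4914 and 5860 FPKM in KO and 3661 and 4154 FPKM in WT. The material thus held RNA of cells other than cardiomyocytes. In implied RNA, defined below, the median log2 change was -0.51 for the heart muscle markers, 0.17 for fibroblast, 0.14 for endothelial and 0.75 for macrophage markers, against 0.22 over all genes. The part of these differences in the results below was not tested. In such bulk samples fewer cells of a type and less RNA per cell cannot be told apart.

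Sodium-coupled neutral carriers gave most of the transporter footprints. Slc38a2, a glutamine and alanine carrier known to be induced by amino acid shortage, was the highest member, with 757 and 1637 FPKM in KO hearts against 997 and 981 FPKM in WT hearts. It made up 27.8% and 39.98% of the summed FPKM of the 35 genes in KO hearts and 39.9% and 43.1% in WT hearts. The KO libraries lay on either side of the WT libraries, and its log2 change of 0.17 (SE 0.38) did not pass (limma adjusted p = 0.843). Slc38a4, a carrier of neutral amino acids that is best known from liver and placenta, came second in both groups, at 477 ± 24.8 FPKM in KO hearts and 301 ± 60.7 FPKM in WT hearts (SD, n = 2). Both KO libraries, at 494 and 459 FPKM, lay above both WT libraries, at 344 and 258 FPKM, without passing (log2 change 0.67, SE 0.24, limma adjusted p = 0.256).

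Slc6a6, the taurine carrier, was the third member in both groups. It had 325 and 524 FPKM in KO hearts and 289 and 207 FPKM in WT hearts. Slc43a3, listed with the large neutral carriers but also known as a purine base carrier, had 157 and 261 FPKM in KO hearts and 78.7 and 127 FPKM in WT hearts. In both genes each KO library lay above each WT library, with log2 changes of 0.75 (SE 0.32) and 1.01 (SE 0.37) that did not pass (limma adjusted p = 0.30 and 0.262). Slc38a3, a glutamine carrier, had 143 and 121 FPKM in KO hearts and 162 and 131 FPKM in WT hearts, and the groups overlapped. Slc38a1, another glutamine carrier, had 82.1 and 219 FPKM in KO hearts and 110 and 58.2 FPKM in WT hearts, and Slc38a10, a less studied family member, had 83.1 and 120 FPKM in KO hearts and 70.6 and 52.0 FPKM in WT hearts. The order of the first 3 genes was the same in both groups by group mean. Below them the ranks moved: Slc7a1, the main cationic carrier, had rank 10 in KO and rank 6 in WT. In all, 6 members averaged 100 FPKM or more, 19 from 10 to 100 FPKM, and 10 less than 10 FPKM.

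**Figure D1:**
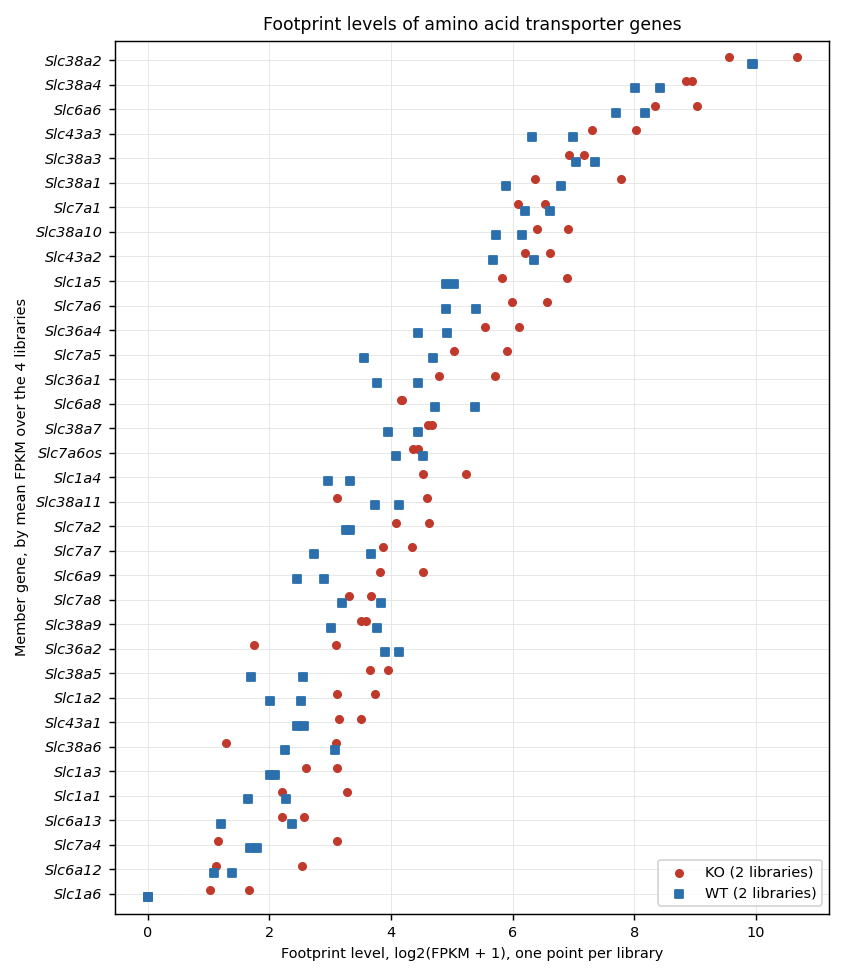
Footprint level of the 35 members on a log2(FPKM + 1) axis, with members ordered by their mean over the 4 libraries. Circles are the KO libraries and squares the WT libraries. Slc38a2 stands highest and Slc1a6, at 0 in both WT libraries, lowest, and in 19 of 35 rows both circles lie to the right of both squares.

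No transporter changed in footprints by the test across all genes. Footprints were compared as log2(FPKM + 1) with limma, which shares the estimate of spread between genes, and p-values were adjusted over all 15031 tested genes by the Benjamini-Hochberg method. Of the 35 members 0 passed at an adjusted p of 0.05, where 0.379% of all tested genes did (57 genes, 0.253% higher and 0.126% lower). At an unadjusted p under 0.05 there were 11 members of 35, beside 17.3% of all genes. These 11 include Slc1a6 (limma unadjusted p = 0.0497), which passed the footprint threshold only through the KO libraries. The members' log2 changes were positive for 28 of 35, beside 71.1% of all tested genes. Their median was 0.74, and the median over all tested genes was 0.36. Slc1a6, which had to differ, is among the 28, and without it 27 of 34 were positive with a median of 0.72. With median-ratio scaling of the libraries those medians were 0.38 and 0.03. Both KO libraries lay above both WT libraries in 19 members (18 without Slc1a6) and below them in 2, and over all genes such separation held for 39.5% upward and 12.1% downward. An exact permutation test of 1 gene cannot go below p = 0.333 with 2 libraries against 2.

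The highest footprint changes among members of at least 5 FPKM were those of Slc1a4, Slc38a5, Slc6a9, Slc1a5 and Slc7a5. Slc7a5, with a log2 change of 1.35, is described with its RNA below. Slc1a4, a carrier of serine, alanine and threonine, had 22.1 and 36.6 FPKM in KO hearts against 9.03 and 6.76 FPKM in WT hearts, a log2 change of 1.74 (SE 0.47, limma adjusted p = 0.194). Slc1a5, its close relative and a carrier of glutamine, had 55.6 and 118 FPKM in KO hearts against 29.1 and 31.8 FPKM in WT hearts (log2 change 1.38, SE 0.43, limma adjusted p = 0.226). The size of that change followed the KO library used, at 0.85 without KO replicate 2 and 1.92 without KO replicate 1. Both genes separated the groups in all 4 libraries. Slc6a9, a glycine carrier, had 21.99 and 13.1 FPKM in KO hearts against 6.45 and 4.46 FPKM in WT hearts (log2 change 1.5, SE 0.52, limma adjusted p = 0.246). Slc38a5, a carrier of glutamine and serine, had 14.5 and 11.6 FPKM in KO hearts against 4.84 and 2.26 FPKM in WT hearts (log2 change 1.68, SE 0.55, limma adjusted p = 0.235). None of these passed, and each KO value stood above each WT value in these genes too.

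The lowest footprint changes were those of Slc36a2 and Slc6a8. Slc36a2, a proton-coupled carrier of glycine, alanine and proline, had 2.36 and 7.55 FPKM in KO hearts against 13.9 and 16.6 FPKM in WT hearts, a log2 change of -1.6 (SE 0.61, limma adjusted p = 0.276). Slc6a8, the creatine carrier, had 17.1 and 17.0 FPKM in KO hearts against 25.3 and 40.7 FPKM in WT hearts (log2 change -0.87, SE 0.41, limma adjusted p = 0.335). In these 2 members alone of the 35, each KO value stood below each WT value. Slc38a6, a family member of poorly known substrate, had 1.43 and 7.54 FPKM in KO hearts and 7.43 and 3.79 FPKM in WT hearts, and the groups overlapped.

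The RNA level behind the footprints was read from the second deposited table. It gives the translation efficiency (TE), the authors' ratio of footprint FPKM to RNA FPKM. A footprint level divided by its TE returns the RNA value the authors used: 59296 of 59296 such quotients ended within 6 significant digits (tolerance 1e-10). The quotient is called the implied RNA level below, and the RNA libraries themselves are not described. It could be formed in all libraries for 33 of the 35 members, the exceptions being Slc1a6 and Slc6a12, a betaine and GABA carrier. It was compared as log2 without a pseudocount over 12529 genes.

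In RNA 4 transporters changed, 2 upward and 2 downward, of 33 tested. Over all genes 4.2% rose and 1.53% fell by the same test (5.73% in all), beside 12.1% of the members, a share that rests on 4 genes. At an unadjusted p under 0.05 there were 11 members of 33, beside 28.3% of all genes. The median log2 change was 0.13 over the members and 0.22 over all genes. Both KO libraries lay above both WT libraries in 12 members and below them in 7, while over all genes that held for 44.2% and 18.6%.

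Slc7a5 (RefSeq GRCm38.p6, chromosome 8, 121881146 to 121907686) rose in RNA. It codes for the light chain of the exchanger that brings leucine and other large neutral amino acids into cells. Implied RNA stood at 9.73 and 7.79 FPKM in KO hearts against 2.14 and 3.05 FPKM in WT hearts, which is 3.41-fold higher (log2 change 1.77, SE 0.29, limma adjusted p = 0.0314). Its footprints were 59.3 and 31.9 FPKM in KO hearts against 24.8 and 10.8 FPKM in WT hearts (log2 change 1.35, SE 0.54), which did not pass (limma adjusted p = 0.285). The groups did not overlap in either measure. Leaving out any 1 library kept the RNA call, with limma adjusted p-values of 0.000723 to 0.0412.

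Slc1a3, a glutamate and aspartate carrier best known from astrocytes, also rose in RNA. It lies on chromosome 15, 8634124 to 8710807. It had 2.07 and 2.38 FPKM of implied RNA in KO hearts against 0.552 and 0.708 FPKM in WT hearts, 3.54-fold higher (log2 change 1.83, SE 0.37, limma adjusted p = 0.0446). Its footprints were low, with 7.67 and 5.08 FPKM in KO hearts against 3.03 and 3.27 FPKM in WT hearts, and did not pass (log2 change 0.81, SE 0.52, limma adjusted p = 0.452). The RNA call was lost without KO replicate 1 (limma adjusted p = 0.0576), without WT replicate 1 (0.0872) and with median-ratio scaling (0.0547). The 6 glial and neuronal markers, of which Th was listed at 0, summed to 33.3 and 30.5 FPKM of footprints in KO hearts against 13.2 and 15.1 FPKM in WT hearts, and their part in this result was not tested.

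Slc36a2 (chromosome 11, 55158468 to 55185099) fell in RNA. Implied RNA stood at 0.072 and 0.737 FPKM in KO hearts against 9.48 and 6.58 FPKM in WT hearts, 34.3-fold lower by the fit (log2 change -5.10, SE 0.99, limma adjusted p = 0.0433). The KO libraries lay far apart on this scale, and the size of the fall depended on which was used. The log2 change was -3.42 without KO replicate 1, -6.78 without KO replicate 2 and -2.71 with a pseudocount of 1 FPKM, and the call held in each case. Among its SLC36 relatives, Slc36a1 is a carrier of the plasma membrane and lysosome. Its implied RNA was 2.86 and 5.20 FPKM in KO hearts against 3.87 and 3.20 FPKM in WT hearts. Slc36a4, a high-affinity proline and tryptophan carrier, had 3.39 and 5.47 FPKM in KO hearts against 4.87 and 4.04 FPKM in WT hearts. Both overlapped between groups, with log2 changes of 0.13 (SE 0.36) and -0.04 (SE 0.32).

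Slc7a1, the cationic carrier that brings arginine and lysine into most cells, fell in RNA, while no fall was detectable in its footprints. It lies on chromosome 5, 148327410 to 148399904. Implied RNA stood at 5.91 and 8.11 FPKM in KO hearts against 18.7 and 14.5 FPKM in WT hearts, 2.38-fold lower (log2 change -1.25, SE 0.27, limma adjusted p = 0.0486). Its footprints were 67.5 and 91.8 FPKM in KO hearts and 96.7 and 72.6 FPKM in WT hearts, overlapping between groups (log2 change -0.09, SE 0.31, limma adjusted p = 0.903). The RNA call was lost without KO replicate 1 (limma adjusted p = 0.0578) and without WT replicate 1 (0.178). Of the other cationic carriers above the threshold, Slc7a2 had 1.23 and 1.21 FPKM of implied RNA in KO hearts against 0.80 and 0.863 FPKM in WT hearts, and Slc7a4, named for its likeness to them, had 0.261 and 0.660 FPKM in KO hearts and 0.708 and 1.03 FPKM in WT hearts. Neither passed (limma adjusted p = 0.354 and 0.286). All 4 RNA calls rest on the mean-variance trend of the model: without it 0 members and 67 genes in all passed, and the limma adjusted p-values of the 4 genes were 0.0511 to 0.0885.

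**Figure D2:**
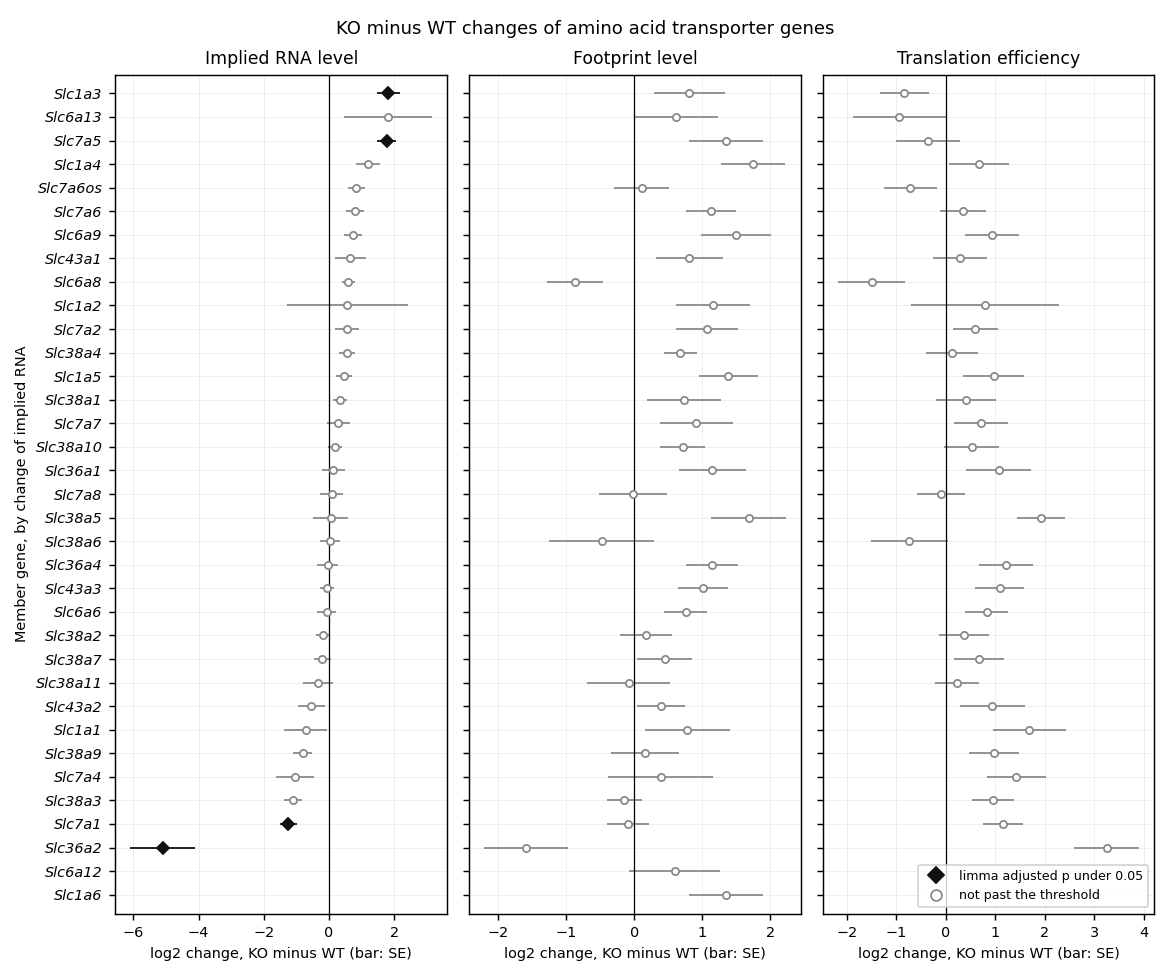
Log2 change, KO minus WT, of each member in implied RNA, footprints and TE, with bars of 1 SE from the limma fit (2 libraries per group). Filled diamonds passed an adjusted p of 0.05. These are Slc1a3 and Slc7a5 to the right and Slc7a1 and Slc36a2 to the left in the RNA panel, and no member in the other 2 panels. Slc1a6 and Slc6a12 have a footprint value only.

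Among the members' RNA differences that did not pass, that of Slc38a3 stood closest to the threshold. Slc38a3 had 9.64 and 8.73 FPKM of implied RNA in KO hearts against 24.3 and 16.03 FPKM in WT hearts (log2 change -1.11, SE 0.27, limma adjusted p = 0.0609). It passed with median-ratio scaling (limma adjusted p = 0.0472), without KO replicate 2 (0.0402), without WT replicate 2 (0.0228) and with the replicate block (0.032), and without WT replicate 1 its adjusted p was 0.406. Its footprints overlapped between groups (log2 change -0.15, SE 0.26). Slc1a4 had 3.51 and 2.04 FPKM in KO hearts against 1.11 and 1.22 FPKM in WT hearts (log2 change 1.20, SE 0.38, limma adjusted p = 0.104). Slc7a6, a light chain that exchanges cationic for neutral amino acids, had 9.38 and 8.38 FPKM in KO hearts against 4.13 and 6.27 FPKM in WT hearts (log2 change 0.80, SE 0.28, limma adjusted p = 0.13). Its neighbour Slc7a6os had 15.7 and 10.7 FPKM in KO hearts against 7.26 and 7.29 FPKM in WT hearts (log2 change 0.83, SE 0.26, limma adjusted p = 0.104). RefSeq lists no overlap between these 2 genes.

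Slc38a9, the lysosomal arginine sensor that signals to mTOR, had 2.17 and 2.80 FPKM of implied RNA in KO hearts against 3.92 and 4.70 FPKM in WT hearts (log2 change -0.80, SE 0.29, limma adjusted p = 0.136). Its footprints were 11.03 and 10.4 FPKM in KO hearts and 7.10 and 12.6 FPKM in WT hearts, overlapping between groups. Slc1a1, the glutamate carrier that also takes up cysteine, had 0.246 and 0.153 FPKM of implied RNA in KO hearts against 0.328 and 0.310 FPKM in WT hearts (log2 change -0.72, SE 0.65). Slc6a13, a GABA and taurine carrier, had a log2 change of 1.81 in RNA (SE 1.35, limma adjusted p = 0.406) on levels of 0.656 and 0.209 FPKM in KO hearts and 0.0273 and 0.407 FPKM in WT hearts, which overlapped. Slc7a8, a second light chain for large neutral amino acids, was nearly level in every measure: its implied RNA was 1.20 and 1.27 FPKM in KO hearts and 1.21 and 1.12 FPKM in WT hearts, and its footprints 11.8 and 8.97 FPKM in KO hearts and 8.13 and 13.3 FPKM in WT hearts. Its log2 changes were 0.09 (SE 0.35) in RNA and -0.02 (SE 0.50) in footprints.

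The creatine carrier Slc6a8 read higher in RNA and lower in footprints in KO, and neither difference passed. Implied RNA stood at 87.7 and 86.6 FPKM in KO hearts against 58.2 and 57.3 FPKM in WT hearts (log2 change 0.59, SE 0.19), which did not pass (limma adjusted p = 0.109). Each KO library stood above both WT libraries in RNA and below both in footprints. By group mean its TE was the lowest of the 33 members in KO and in WT, at 0.195 and 0.196 in KO hearts against 0.434 and 0.71 in WT hearts (log2 change -1.50, SE 0.68, limma adjusted p = 0.812). A long non-coding RNA, Gm32261, overlaps 12.5% of the gene in RefSeq, and whether reads were assigned by strand is not stated. Such RNAs overlap larger shares of Slc38a4 (19.3%), Slc7a4 (18.0%), Slc1a2 (17.6%), Slc1a1 (14.1%) and Slc6a6 (13.7%).

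**Figure D3:**
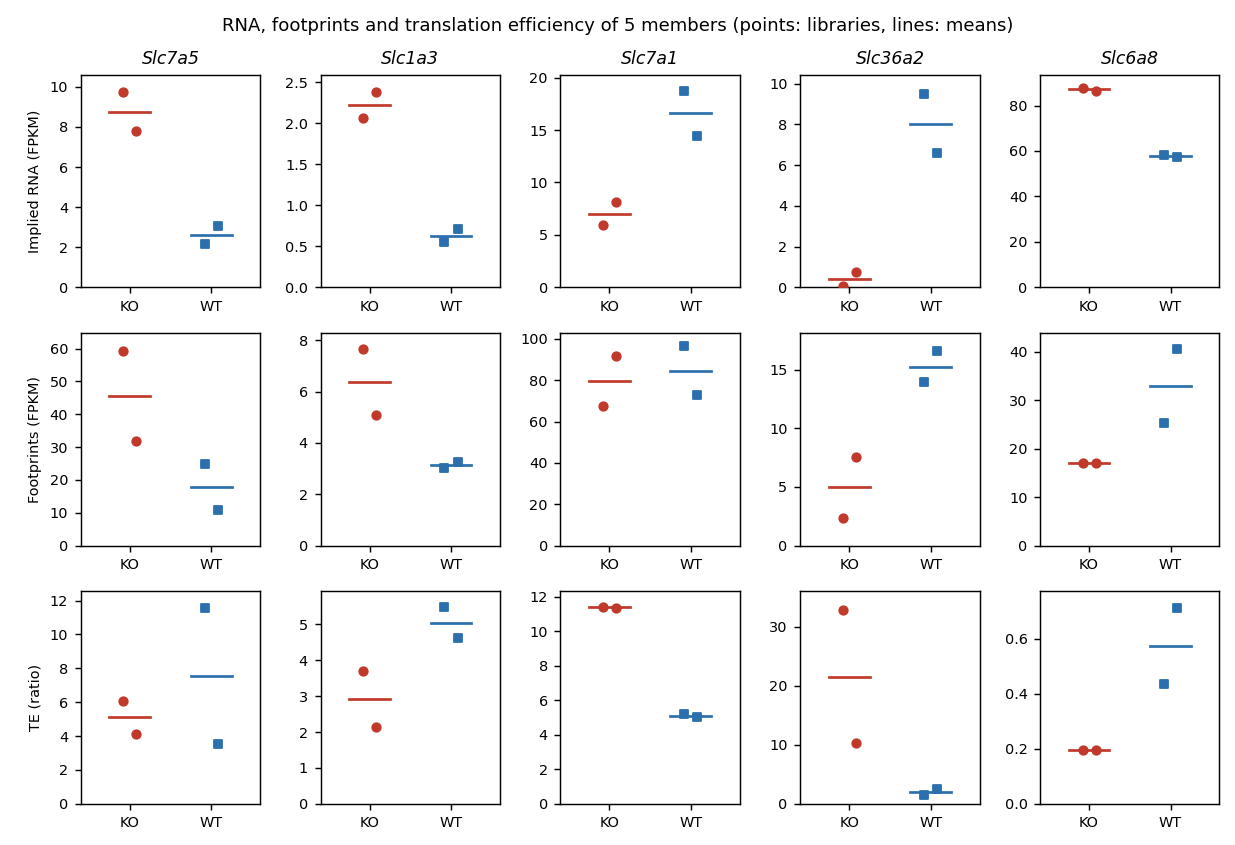
Implied RNA level (top row, FPKM), footprint level (middle row, FPKM) and TE (bottom row, ratio) of 5 members, with 1 point per library, KO left of WT, and lines at the group means. All axes start at 0. RNA separates the groups in all 5 genes, while the footprints of Slc7a1 and the TE of Slc7a5 overlap.

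No transporter changed in TE by limma's test: 0 of 33 members and 0% of the 12529 genes passed, and 3 members and 759 genes (6.06%) had an unadjusted p under 0.05. The members' TE changes were positive in 26 of 33, beside 59.5% of all tested genes. The median change was 0.67 over the members, against 0.15 over all genes. Their median TE was 6.33 and 9.75 in KO hearts against 6.01 and 4.62 in WT hearts, and over all tested genes it was 3.78 and 4.68 in KO hearts against 4.10 and 3.31 in WT hearts. Both KO libraries lay above both WT libraries in 14 members and below them in 3, beside 24% and 12% of all genes. Since TE is the quotient of the other measures, it adds no independent value.

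The 3 members under an unadjusted p of 0.05 in TE were Slc36a2, Slc38a5 and Slc7a1. Slc36a2 had a TE of 32.8 and 10.2 in KO hearts against 1.47 and 2.52 in WT hearts (log2 change 3.25, SE 0.66, limma adjusted p = 0.611), with its KO denominators near 0. It passed with the replicate number as a block (limma adjusted p = 0.00029), although nothing shows that the numbers pair the libraries. Slc38a5 had a TE of 36.7 and 22.5 in KO hearts against 9.03 and 6.41 in WT hearts (log2 change 1.92, SE 0.49, limma adjusted p = 0.777). Its implied RNA was 0.396 and 0.513 FPKM in KO hearts and 0.536 and 0.352 FPKM in WT hearts, so the groups overlapped in RNA and stood apart in footprints. Slc7a1 had a TE of 11.4 and 11.3 in KO hearts against 5.17 and 5.02 in WT hearts (log2 change 1.16, SE 0.41, limma adjusted p = 0.806). Values of TE for members with hardly any RNA, such as Slc1a2, a glutamate carrier of astrocytes with 0.019 and 0.0936 FPKM of implied RNA in KO hearts and 0.0778 and 0.0106 FPKM in WT hearts, reached 444 on RNA levels close to 0.

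Across the 33 members, RNA and footprint changes had the same sign in 21. Their Pearson correlation was 0.635 and their Spearman correlation 0.513, and without Slc36a2 the Pearson correlation was 0.412. These describe genes measured in the same libraries and are no test.

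**Figure D4:**
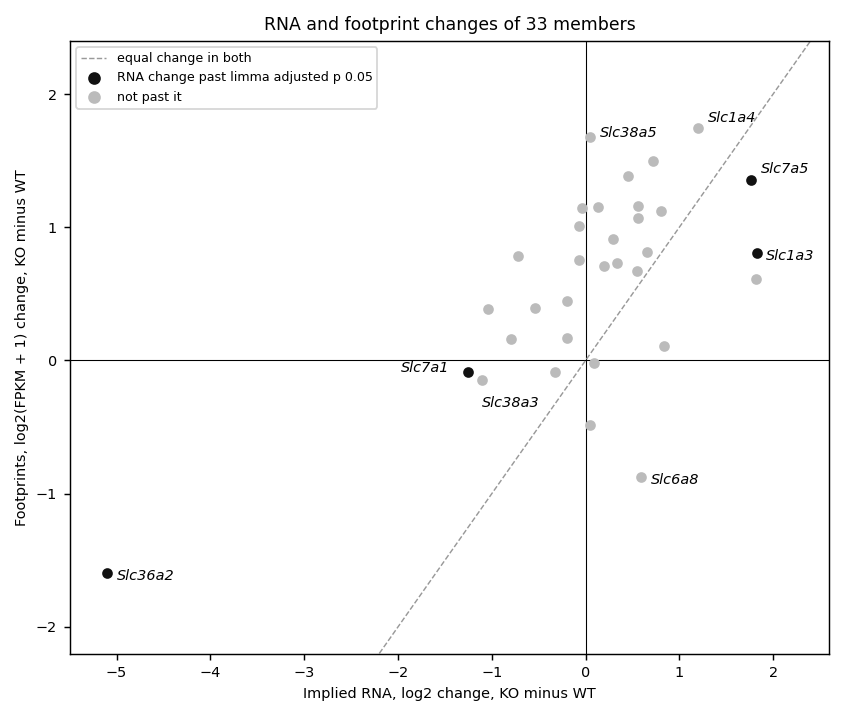
Log2 change of footprints, on the log2(FPKM + 1) scale, against that of implied RNA, KO minus WT, for 33 members. Black points passed in RNA and the dashed line marks equal change. Slc36a2 lies far to the left, Slc38a5 high above an RNA change of 0.05, and Slc6a8 lies to the right of 0 in RNA and below 0 in footprints.

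Start-site sequences were looked up for the members whose RNA or footprints stood out, since they are the sequences from which the RNA starts. RefSeq GRCm38.p6 windows of 300 bases, 250 of them before the annotated transcript start, were at hand for 25 of the 35 members (42 windows), which leaves out Slc7a5, Slc36a2 and Slc6a8. They were searched on both strands for TGATGNAA, a motif bound by the stress factor ATF4 with C/EBP partners, and for CACGTG, an E-box. The first was in 3 of 42 member windows, of the genes Slc1a4 and Slc7a7, and in 3.97% of all 32851 windows. The second was in 5 of 42, of the genes Slc1a6, Slc36a1, Slc38a5, Slc38a7 and Slc43a1, and in 7.15% of all windows. The windows of Slc1a4 and Slc38a5, with the highest footprint changes, and of Slc1a3 and Slc7a1, which changed in RNA, are shown 5′ to 3′ on the strand of the gene, with motif matches in capitals. For Slc7a1 the outer of its 2 windows is shown. The match in Slc1a4 starts at position -4 from the transcript start and that in Slc38a5 at position -30, the other 2 windows hold neither motif, and a match of letters is not evidence of binding.
Slc1a4, chr11:20332664-20332963, minus strand: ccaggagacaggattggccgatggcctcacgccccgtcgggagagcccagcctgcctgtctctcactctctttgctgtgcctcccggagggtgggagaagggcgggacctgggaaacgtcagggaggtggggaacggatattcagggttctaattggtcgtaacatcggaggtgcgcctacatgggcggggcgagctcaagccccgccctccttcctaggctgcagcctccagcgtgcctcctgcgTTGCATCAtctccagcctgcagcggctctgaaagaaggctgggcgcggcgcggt
Slc38a5, chrX:8271131-8271430, plus strand: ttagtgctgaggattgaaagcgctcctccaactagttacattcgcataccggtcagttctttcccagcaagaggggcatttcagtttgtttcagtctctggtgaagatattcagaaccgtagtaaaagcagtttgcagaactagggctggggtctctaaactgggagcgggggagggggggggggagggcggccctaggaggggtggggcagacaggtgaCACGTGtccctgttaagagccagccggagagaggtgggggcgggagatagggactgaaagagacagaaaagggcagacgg
Slc1a3, chr15:8710758-8711057, minus strand: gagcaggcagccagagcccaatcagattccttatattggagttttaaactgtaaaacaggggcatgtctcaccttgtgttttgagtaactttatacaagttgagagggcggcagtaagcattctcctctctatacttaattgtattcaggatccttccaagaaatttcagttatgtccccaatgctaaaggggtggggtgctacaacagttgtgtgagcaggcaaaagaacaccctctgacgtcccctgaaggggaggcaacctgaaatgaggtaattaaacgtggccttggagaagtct
Slc7a1, chr5:148399855-148400154, minus strand: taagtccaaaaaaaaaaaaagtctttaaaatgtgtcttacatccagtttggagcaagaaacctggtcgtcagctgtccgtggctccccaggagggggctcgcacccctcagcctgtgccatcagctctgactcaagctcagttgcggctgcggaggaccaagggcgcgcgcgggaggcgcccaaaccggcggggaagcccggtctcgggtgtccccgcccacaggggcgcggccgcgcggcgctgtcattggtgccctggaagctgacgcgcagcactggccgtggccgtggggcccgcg

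The partners of the carriers and the genes that respond to amino acid supply were read from lists. Slc3a2, the heavy chain that pairs with Slc7a5, Slc7a6 and Slc7a8, had 282 and 502 FPKM of footprints in KO hearts against 199.8 and 232 FPKM in WT hearts. Its implied RNA was 49.9 and 24.3 FPKM in KO hearts against 22.5 and 15.7 FPKM in WT hearts. Both measures stood higher in every KO library without passing (log2 change 0.80 in footprints and 0.89 in RNA, limma adjusted p = 0.29 and 0.178). Slc16a10, a carrier of aromatic amino acids and thyroid hormone, had 25.1 and 21.3 FPKM of footprints in KO hearts against 58.3 and 65.8 FPKM in WT hearts (log2 change -1.38, limma adjusted p = 0.165). Of the 11 heavy chains and other carriers listed, 6 reached the footprint threshold and 0 passed in footprints, RNA or TE.

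Transporters known as targets of ATF4 were followed as a list of 9 genes, 7 of them tested. None passed in footprints, and in RNA 1 rose (Slc7a5) and 1 fell (Slc7a1), where 4.2% of all genes rose and 1.53% fell. The list's median log2 change was 1.35 in footprints and 0.72 in RNA, against 0.36 and 0.22 over all tested genes. Slc38a2 in this list had an implied RNA level of 119.5 and 126 FPKM in KO hearts and 142 and 139 FPKM in WT hearts (log2 change -0.20, SE 0.20). The amino acid response list of 21 genes covers ATF4, its activators and targets. Of 20 rows tested in RNA 5 rose and 1 fell, beside the same 4.2% and 1.53% of all genes. Those that rose were Sesn2, a leucine-binding inhibitor of mTOR signalling, Psat1 of serine synthesis, Mthfd2 of mitochondrial folate metabolism, Eif2s1, the alpha subunit of initiation factor eIF2, and Ddit3, the transcription factor CHOP. The one that fell was Chac1, a glutathione-degrading enzyme. The RNA calls in this list and in the mTOR list below use the same mean-variance trend on which the member calls rest. Whether they hold without it is not given here.

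Sesn2 had 6.65 and 6.77 FPKM of implied RNA in KO hearts against 1.6 and 1.57 FPKM in WT hearts (log2 change 2.08, limma adjusted p = 0.0218). Psat1 had 8.01 and 7.37 FPKM in KO hearts against 1.75 and 2.66 FPKM in WT hearts (log2 change 1.83, limma adjusted p = 0.0307). Chac1 had 0.34 and 0.624 FPKM in KO hearts against 3.76 and 5.54 FPKM in WT hearts (log2 change -3.31, limma adjusted p = 0.0231). Atf4 itself had a log2 change of 0.68 in RNA and 0.74 in footprints, neither past the threshold (limma adjusted p = 0.188 and 0.298). In footprints 1 of 22 rows passed, beside 0.379% of all genes. It was 1 of the 2 Ensembl genes that carry the symbol Ddit3. This row had 574 and 597 FPKM in KO hearts against 23.4 and 27.6 FPKM in WT hearts. Its TE was listed at 0, so it had no implied RNA. The Ddit3 that rose in RNA is the other Ensembl gene, and its footprints did not pass (log2 change 1.10, limma adjusted p = 0.356).

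The 34 listed genes of the mTOR complex, its amino acid sensors and its other regulators are read the same way. Of these, 0 passed in footprints and 2 in RNA, with Sesn2 higher and Sesn1, its relative, lower. That is 5.88% of the list, near the 5.73% of all genes called in RNA. Sesn1 had 15.6 and 18.8 FPKM of implied RNA in KO hearts against 34.1 and 40.01 FPKM in WT hearts (log2 change -1.11, limma adjusted p = 0.0442). Its footprints were 103 and 271 FPKM in KO hearts and 185 and 166 FPKM in WT hearts, overlapping between groups. The list's median log2 change was 0.09 in footprints and 0.13 in RNA, against 0.36 and 0.22 over all genes. Mtor and Rptor, the kinase and its scaffold, had RNA changes of -0.25 and -0.45 (limma adjusted p = 0.481 and 0.313).

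By carrier family, the footprint median was 1.25 for the 6 SLC1 members (1.16 without Slc1a6), 1.14 for the 3 SLC36 members, 1.02 for the 4 light chains of SLC7, 0.81 for the 3 SLC43 members and 0.61 for the 5 SLC6 members (log2 change). It was 0.39 for the 3 cationic carriers and 0.31 for the 10 SLC38 members, beside 0.36 over all genes. In RNA the family medians ran from -1.04 for the cationic carriers to 0.66 for SLC6, with 0.55 for the light chains, 0.56 for SLC1, -0.04 for SLC36, -0.07 for SLC43 and -0.08 for SLC38. RNA calls numbered 1 of 3 tested cationic carriers, 1 of 4 light chains, 1 of 5 SLC1 members and 1 of 3 SLC36 members. They numbered 0 of 4 SLC6, 0 of 10 SLC38 and 0 of 3 SLC43 members. Over all genes 5.73% were called, and lists of this size cannot show a difference between families.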

How the data were processed

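Per the labels' protocols, ribosome-protected fragments of 4 mouse heart libraries were sequenced. The authors deposited FPKM per gene and a translation efficiency, a ratio of footprint to RNA FPKM. The genome was GRCm38 (mm10), and the aligners STAR 2.7.4a and Bowtie 1.3.1, the trimmer cutadapt 3.7, Cufflinks 2.2.1, HTSeq 0.13.5 and FastQC 0.11.9 are named, with no role or order, per the submitters' processing notes. Low values showed no steps of whole reads, since at most 18 of 780 genes shared 1 ratio between a pair of libraries, so depth is unknown and count tests were not run.

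Genes at 1 FPKM or more in 2 libraries were fitted with limma 3.58.1 (R 4.3.3, mean-variance trend) on log2(FPKM + 1), which understates changes of low genes, and on log2 of implied RNA and of the ratio. P-values were adjusted over all tested genes. The fit was tested only on simulated data with the same spread for every gene, which cannot show how it behaves where spread varies with level. Values per library are given for members called, highest in level or furthest changed, and for 8 chosen carriers; Slc36a1, Slc36a4, Slc7a2, Slc7a4, Slc1a2, Slc6a13 and those beside the threshold were added after their values were seen. The members and lists were chosen with earlier results of these data known. Same-numbered replicates did not deviate together (correlation -0.06 in footprints and -0.22 in RNA), so libraries were not paired.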

Additional observations from a re-analysis of the deposited data

How the results depend on the processing

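Alternatives left out each library, added the replicate block, or changed scaling, filter, gene set, trend or pseudocount. The members called in footprints stayed at 0 under each. In RNA, 4 members passed, against 2 to 9 when 1 library was left out (9 without KO replicate 2), 5 with the replicate block and 0 without the mean-variance trend. In TE, the replicate block gave 1 call, Slc36a2. Over all genes, footprint calls were 57, against 0 without any 1 library, 143 with the replicate block, 8 with no filter, 225 with 1 FPKM required in all libraries, 229 in protein-coding genes, 36 without the trend and 34 with a pseudocount of 0.1. RNA calls were 718, against 3742 without KO replicate 2, 1160 without WT replicate 2, 1429 with the replicate block and 67 without the trend. TE calls were 0, against 33 without WT replicate 1, 8 without WT replicate 2 and 178 with the replicate block. Uncalled log2 changes that turned sign when 1 library was left out ranged, in footprints, over -0.39 to 0.73 (Slc38a2), -0.30 to 0.0033 (Slc38a3), -1.39 to 0.43 (Slc38a6), -0.21 to 0.53 (Slc38a9), -0.31 to 0.13 (Slc7a1), -0.12 to 0.33 (Slc7a6os) and -0.34 to 0.31 (Slc7a8). In RNA they ranged over -0.25 to 0.36 (Slc38a5), -0.19 to 0.28 (Slc38a6), -0.25 to 0.12 (Slc43a3) and -0.45 to 0.31 (Slc6a6). In TE they ranged over -0.090 to 1.42 (Slc1a4), -0.21 to 1.03 (Slc38a1), -0.15 to 0.89 (Slc38a2), -0.36 to 0.61 (Slc38a4), -1.70 to 0.23 (Slc38a6), -1.21 to 0.50 (Slc7a5), -0.030 to 0.72 (Slc7a6) and -0.52 to 0.30 (Slc7a8). Median-ratio scaling turned footprints of Slc38a2 (-0.20), Slc38a9 (-0.18) and Slc7a6os (-0.25), RNA of Slc38a10 (-0.021), Slc38a5 (-0.17), Slc38a6 (-0.18) and Slc7a8 (-0.13), and TE of Slc38a4 (-0.021). The causes were not tested. With 2 libraries a group and unknown depth, small differences were not detectable.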
